A study of Gallus gallus with 12 samples.

Results

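Of 30108 chicken genes measured in the third interdigital region of the hindlimb, 50 met the terms below for a large difference. The terms compare tissue that had held a Noggin bead with tissue that had held a PBS bead. Of the 50 genes, 30 were higher and 20 lower with Noggin. These 50 genes were selected on the Noggin and PBS values of replicate numbers 1 to 5 themselves. Each had all 5 Noggin libraries above, or all 5 below, all 5 PBS libraries, a difference of group means above 2 on the log2(CPM + 1) scale, and a mean of at least 5 CPM in the higher group. A difference of 2 is 4-fold in CPM + 1, so genes left out for size can still differ more than 4-fold in CPM. CPM are the reads of a gene per 1000000 reads of its library. The size of the difference and the separation of the groups are therefore the terms of selection and are given as a description, without a test.

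The Noggin group is interdigital tissue of Gallus gallus with an implanted bead soaked in Noggin, and the PBS group is the same region with a bead soaked in PBS alone. Beads went into left or right limbs at Hamburger-Hamilton stage 30 and stayed for 12 h, and 6 libraries were made per group from 180 ng of total RNA by Lasy-Seq, a multiplexed method that reads transcript ends. All groups thus share the operation, the bead and the stage. The labels do not say whether a library came from 1 embryo, so spreads and p-values cover these samples and may be technical in part. In bulk tissue, fewer cells that express a gene and less RNA per cell cannot be told apart.

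Bone morphogenetic proteins (BMPs) are secreted ligands of the TGF-beta family that bind paired serine/threonine kinase receptors and act on transcription through SMAD proteins. In the limb they are known for driving the programmed cell death that clears the tissue between the digits, and for promoting cartilage within the digits. Noggin is a secreted protein that binds BMPs and keeps them from their receptors. The comparison asks which interdigital transcripts differ when BMPs are bound by Noggin. The table carries Ensembl identifiers without symbols, and the column for Ensembl identifiers in the reference gene table used here is empty, so a lookup was not possible. Accordingly no gene is given a name, a role, a position or a sequence, and marker genes of the tissue or of blood, muscle, cartilage and skin could not be checked. Identifiers are printed for the 2 largest differences in each direction.

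Depth was 2019491 to 3513398 reads in the Noggin libraries numbered 1 to 5 and 1624309 to 2767417 reads in the PBS libraries numbered 1 to 5 (means 2737412 ± 600115 and 2110017 ± 474694, SD, n = 5 libraries per group; p = 0.111 by an exact permutation test, two-sided). The value of 1 read was 0.285 to 0.495 CPM in those Noggin libraries and 0.361 to 0.616 CPM in those PBS libraries. The pair of libraries numbered 6 took no part in the selection, because their values lie with the opposite group. They are given throughout as labelled.

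**Figure D1:**
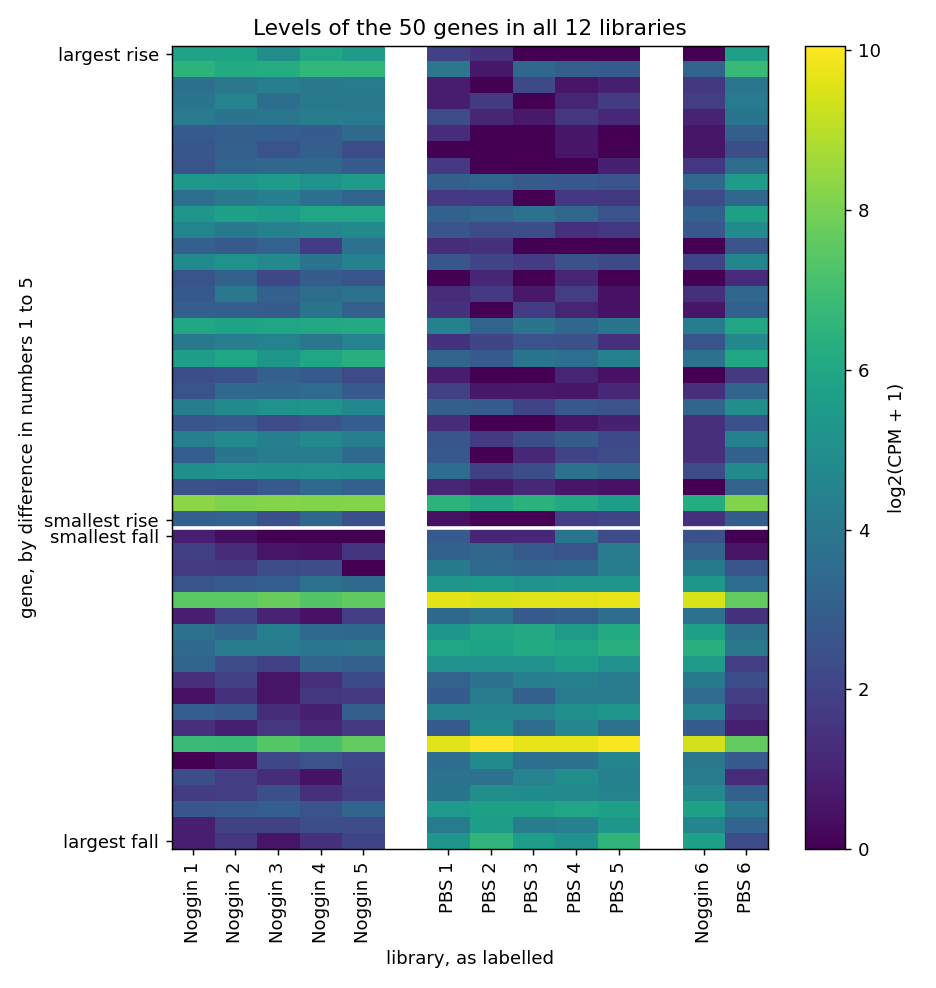
Heat map of log2(CPM + 1) for the 50 genes (rows, ordered by the difference in numbers 1 to 5) in 12 libraries (columns: Noggin 1 to 5, PBS 1 to 5, then Noggin 6 and PBS 6 as labelled). Within a row, Noggin 1 to 5 are brighter than PBS 1 to 5 in the top 30 rows and darker in the bottom 20, as selection requires. In most rows PBS 6 lies with Noggin 1 to 5, and Noggin 6 with PBS 1 to 5. All rows share the colour scale, so genes of low level stay dark.

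The gene with the largest rise was scarce in PBS tissue. ENSGALG00010013552 stood at 54.5, 55.2, 30.7, 60.9 and 45.7 CPM in Noggin libraries 1 to 5, against 2.89, 1.67, 0, 0 and 0 CPM in PBS libraries 1 to 5. All Noggin libraries were far above every PBS library, and 3 of the 5 PBS libraries held no read of it. Its mean was 49.4 ± 11.8 CPM under Noggin beads and 0.913 ± 1.32 CPM under PBS beads (SD, n = 5 each), a difference of 4.94 on the log2(CPM + 1) scale. Over the pooled reads, 688 in the Noggin group and 11 in the PBS group, the ratio of CPM was 48.2 (95% exact interval 26.8 to 97.0, counting error only). The library labelled Noggin 6 had 0 CPM and the library labelled PBS 6 had 49.6 CPM.

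The next in size, ENSGALG00010014238, was present at a low level in PBS tissue. It stood at 90.4, 69.4, 73.8, 99.8 and 100.2 CPM in Noggin libraries 1 to 5, against 14.8, 0.558, 9.24, 7.24 and 6.58 CPM in PBS libraries 1 to 5. The PBS libraries were unequal, with PBS 1 at 41 reads and PBS 2 at a single read, and the SD of this gene in the PBS group, 1.27 on the log2(CPM + 1) scale, was the highest of the 30 genes. The mean was 86.7 ± 14.4 CPM under Noggin beads and 7.69 ± 5.13 CPM under PBS beads (SD, n = 5 each), a difference of 3.65 on the log2(CPM + 1) scale. In number 6 the library labelled Noggin had 8.22 CPM and the library labelled PBS 107.0 CPM.

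Among the 20 genes lower with Noggin, ENSGALG00010028554 had the largest difference. It stood at 0.779, 1.99, 0.495, 1.66 and 3.15 CPM in Noggin libraries 1 to 5, against 38.3, 97.0, 48.6, 33.1 and 93.0 CPM in PBS libraries 1 to 5. Every Noggin library kept between 1 and 10 reads, so the transcript was scarce and still detected, and PBS 2 and PBS 5 stood above the other 3 PBS libraries. The mean was 1.61 ± 1.06 CPM under Noggin beads and 62.0 ± 30.7 CPM under PBS beads (SD, n = 5 each), a difference of -4.55 on the log2(CPM + 1) scale. Pooled reads were 24 in the Noggin group and 649 in the PBS group, which puts CPM 35.1-fold lower with Noggin (95% exact interval 23.4 to 55.2, counting error only). In number 6 the library labelled Noggin held 52.9 CPM and the library labelled PBS 3.88 CPM.

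ENSGALG00010020651 followed at a distance. It stood at 0.779, 2.85, 2.97, 4.14 and 4.10 CPM in Noggin libraries 1 to 5, against 16.98, 47.4, 17.9, 19.6 and 38.7 CPM in PBS libraries 1 to 5. The same PBS libraries, 2 and 5, were again the highest. The mean was 2.97 ± 1.37 CPM under Noggin beads and 28.1 ± 14.002 CPM under PBS beads (SD, n = 5 each), a difference of -2.84 on the log2(CPM + 1) scale. As labelled, Noggin 6 stood at 23.1 CPM and PBS 6 at 8.63 CPM, a value between the groups of numbers 1 to 5.

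**Figure D2:**
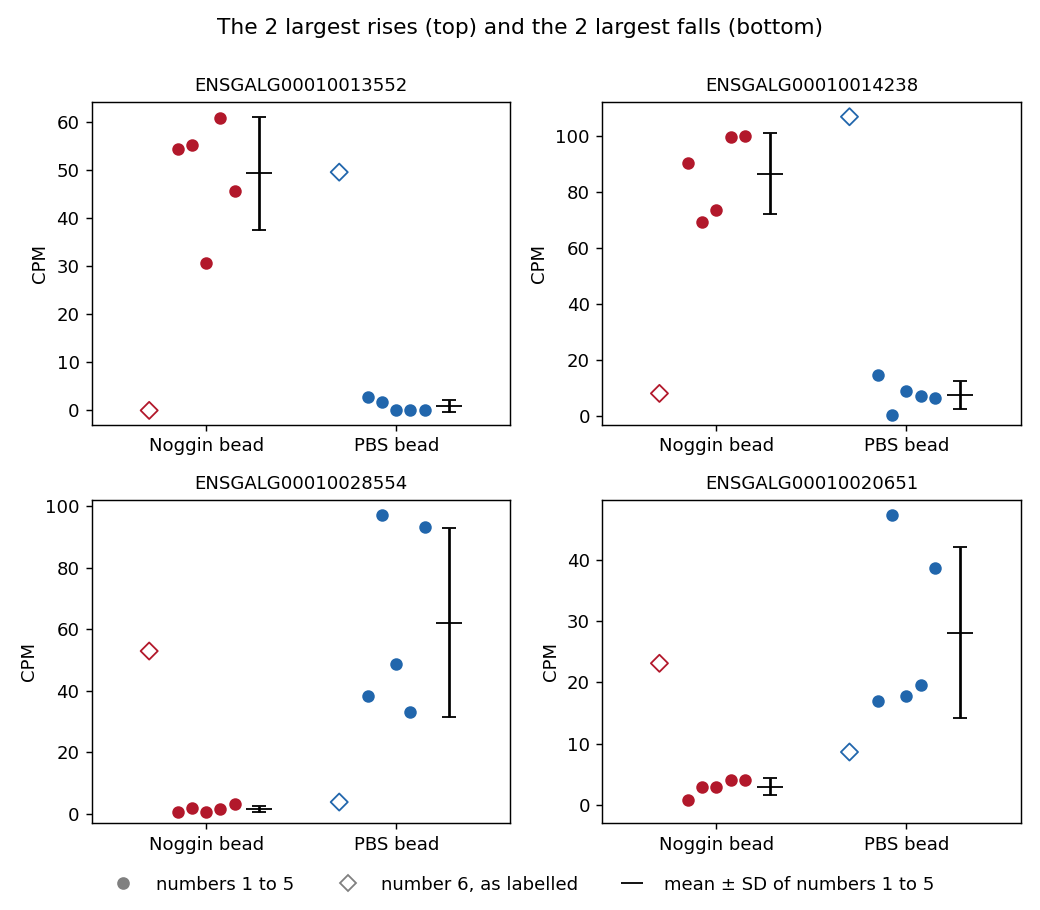
CPM of the 2 genes with the largest rise (top) and the 2 with the largest fall (bottom) under Noggin beads (left) and PBS beads (right). Filled points are numbers 1 to 5, bars their mean ± SD (n = 5), and open diamonds number 6 as labelled, which lies nearer to the opposite group in all 4 genes.

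Most of the other differences lay close to the limit of selection. Differences ran from 2.03 to 4.94 on the log2(CPM + 1) scale in the 30 genes higher with Noggin (median 2.24), and from -4.55 to -2.03 in the 20 genes lower with Noggin (median -2.49). Only 3 of the 30 and 1 of the 20 exceeded a size of 3. As ratios of mean CPM, without the pseudocount, the 30 genes were 4.12-fold to 56.2-fold higher with Noggin (median 7.22) and the 20 genes 4.25-fold to 38.4-fold lower (median 6.69). With a pseudocount of 4 in place of 1, which damps low levels, 11 of the 50 genes stayed above the limit. Just outside the limit of selection lay a gene with a difference of -1.999 that averaged 259 CPM under Noggin beads and 1029 CPM under PBS beads, and one with a difference of 1.99 that averaged 9.08 CPM under Noggin beads and 1.44 CPM under PBS beads. A pair of genes passed the size and level but had overlapping groups, with differences of -2.08 and -2.13.

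The level at which the 50 genes are expressed differed widely. In the group where it was higher, the mean lay under 10 CPM for 14 of the 50 genes, between 10 and 100 CPM for 33 and above 100 CPM for 3. The most abundant gene of the whole set averaged 146 ± 36.3 CPM under Noggin beads and 889 ± 133 CPM under PBS beads (SD, n = 5 each). It stood at 115, 112, 168, 138 and 198 CPM in Noggin libraries 1 to 5, against 747, 1060, 828, 814 and 996 CPM in PBS libraries 1 to 5, so that a transcript lower by 2.62 on the log2(CPM + 1) scale was still abundant with Noggin. The second most abundant had the smallest spread of the 50 genes among PBS libraries. It ran from 162 to 207 CPM in the Noggin libraries and from 742 to 815 CPM in the PBS libraries, with SDs of 0.13 and 0.06 on the log2(CPM + 1) scale, and averaged 184 and 780 CPM. Among the genes higher with Noggin, a single one passed 100 CPM. It ran from 274 to 316 CPM in the Noggin libraries and from 47.7 to 88.9 CPM in the PBS libraries, means of 291 ± 15.4 and 70.5 ± 16.5 CPM.

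Summed over the 30 genes higher with Noggin, the level was 942 ± 42.0 CPM in Noggin libraries and 166 ± 32.3 CPM in PBS libraries (SD, n = 5 each). Without the 2 most abundant of the 30, the sums were 564 ± 42.7 and 87.7 ± 16.4 CPM. Over the 20 genes lower with Noggin, the sum was 405 ± 54.1 CPM in Noggin libraries and 2171 ± 209 CPM in PBS libraries, and 74.8 ± 7.52 and 502 ± 85.7 CPM without the 2 most abundant. The libraries numbered 6 gave 179 CPM (labelled Noggin) and 955 CPM (labelled PBS) for the 30 genes, and 1885 and 497 CPM for the 20 genes.

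The genes higher with Noggin came nearer to absence in their lower group than the genes lower with Noggin did in theirs. The lower group averaged under 1 CPM for 9 of the 30 genes (PBS) and for 1 of the 20 genes (Noggin), with medians of 1.58 and 2.63 CPM. No read was found in 30 of the 150 PBS values of the 30 genes and in 5 of the 100 Noggin values of the 20 genes, while the higher group held at least 1 read of every gene in all libraries. Because the PBS libraries were shallower, the same was counted at a fixed level, 1.85 CPM, which is 3 reads in the shallowest library. Of the 150 PBS values, 74 lay under it, and of the 100 Noggin values, 32. In 7 of the 30 genes all 5 PBS libraries were under this level, and in 1 of the 20 genes all 5 Noggin libraries. The 30 genes were also lower in their higher group, with a median of 15.5 CPM against 25.6 CPM for the 20 genes. Under 10 CPM in that group lay 11 of the 30 and 3 of the 20. Median ratios of mean CPM were 7.22 and 6.69. The difference between directions was not tested and was not adjusted for level.

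Near-absence, taken as at most 3 reads in the whole lower group, was met by 1 gene in each direction. The gene nearly absent from PBS tissue had 80 reads over the Noggin libraries and 1 read over the PBS libraries, at 5.45, 7.40, 4.95, 7.04 and 4.10 CPM in Noggin libraries 1 to 5, against 0, 0, 0, 0.517 and 0 CPM in PBS libraries 1 to 5. Its pooled ratio was 61.7 (95% exact interval 10.8 to 2466, counting error only), an interval that shows how little a single read fixes. The gene nearly absent from Noggin tissue had 3 reads over the Noggin libraries and 58 over the PBS libraries, at 0.779, 0.285, 0, 0 and 0 CPM in Noggin libraries 1 to 5, against 6.14, 1.12, 1.23, 13.96 and 4.12 CPM in PBS libraries 1 to 5. Its groups were barely apart: Noggin 1 held 2 reads, and so did the lowest PBS library. No gene had 0 reads in all 5 libraries of a group, and 0 reads leave room for a level of 0.854 CPM at the greatest depth and of 1.85 CPM at the least (3 reads, counting error only).

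**Figure D3:**
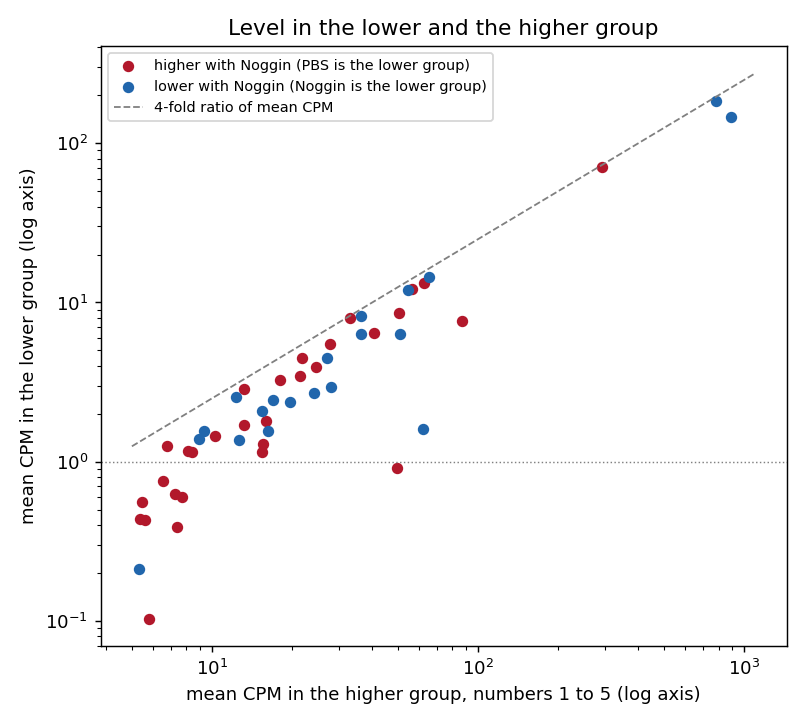
Mean CPM in the lower group (vertical) against mean CPM in the higher group (horizontal) in numbers 1 to 5, both log axes, for 30 genes higher and 20 genes lower with Noggin. The dashed line marks a 4-fold ratio, and of the points under the dotted line at 1 CPM, 9 belong to the 30 genes and 1 to the 20.

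Across the table of genes, 10657 reached 10 reads at the median depth (4.13 CPM) in at least 5 of the 10 libraries and were tested with limma. Of the 50 genes, 44 passed this low-count filter, 25 higher and 19 lower with Noggin. The background share of tested genes with all Noggin libraries above all PBS libraries was 5.17%, and 3.88% lay entirely below. By limma, 6.69% of tested genes were higher and 3.96% lower with Noggin at a Benjamini-Hochberg adjusted p of 0.05, and 25 of 25 and 19 of 19 of the selected genes were among them. Nothing is read from these counts, since the genes were picked on this contrast and those that passed the filter through one group alone had to differ. Among 561 genes with separated groups, higher with Noggin and at 5 CPM or more, 5.35% passed the 4-fold limit, and among 422 lower genes 4.74%.

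Averaged over the 10 libraries, most of the 50 genes lay below the median level of the 10657 tested genes, 23.1 CPM. This average takes in the lower group, which selection holds low. In the higher group alone the median of the 50 genes was 17.5 CPM. Selected genes that did not pass the low-count filter were ranked against those that did, which places them near the bottom. The median percentile of the 10-library mean was 22 for the 50 genes, with 16.6 for the 30 genes higher and 33.5 for the 20 genes lower with Noggin. The 3 genes above 100 CPM lay at percentile 94.3 or above. Small numbers of reads thus stand behind many of the values, with a median of 213.5 reads in the Noggin group and 17 in the PBS group for the 30 genes, and of 35 reads in the Noggin group and 266 in the PBS group for the 20 genes.

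Within each replicate number the difference had the direction of the whole group, as separated groups require, but its size varied. In numbers 1, 2, 3, 4 and 5 the median difference of the 30 genes was 1.83, 2.80, 2.60, 2.36 and 2.46 on the log2(CPM + 1) scale, and that of the 20 genes -2.26, -2.51, -2.25, -2.51 and -2.37. Number 1 held the smallest median of the 30 genes, and a size over 2 was found there in 13 of the 30 genes, against 26 of 30 in number 2. Both libraries of number 1 stood towards the other group for these genes: Noggin 1 was the lowest Noggin library in 10 of the 30, and PBS 1 the highest PBS library in 13 of the 30. For the 20 genes, PBS 1 was the lowest PBS library in 9. PBS 2 was the highest PBS library in 9 of the 20. It was counted as the lowest in 13 of the 30 genes, but ties at 0 reads went to the lower-numbered library. Several of the 13 were ties with PBS 3, and PBS 3 had 0 reads in 11 of the 30 genes against 9 in PBS 2. These orders were noticed in the values, were not tested and were not counted over all tested genes. PBS 1 was also the deepest PBS library, at 2767417 reads.

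**Figure D4:**
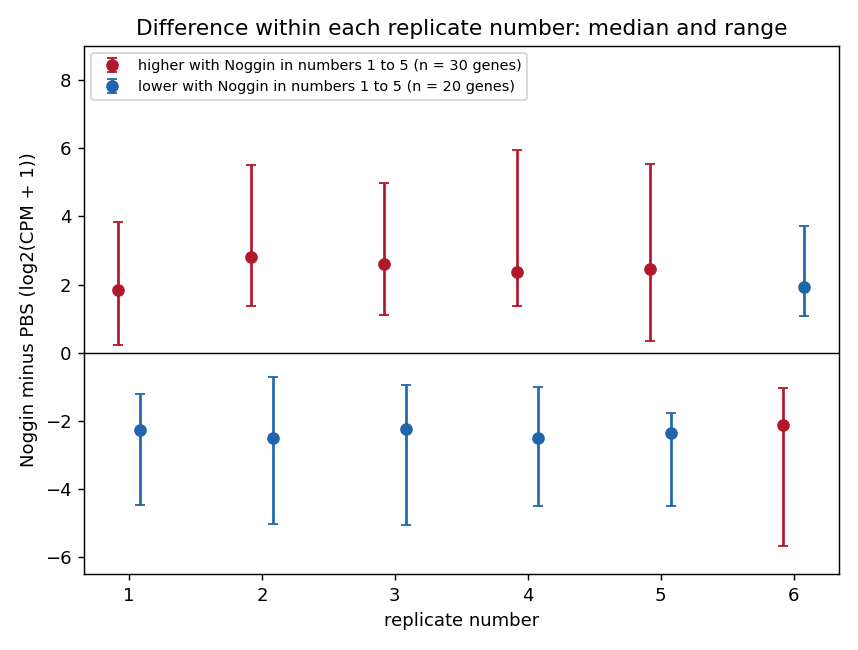
Noggin minus PBS difference on the log2(CPM + 1) scale within each replicate number, as the median (point) and range (bar) over 30 genes higher and 20 genes lower with Noggin in numbers 1 to 5. The medians keep to one side in numbers 1 to 5 and change sides in number 6, at -2.12 and 1.93.

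Differences between replicate numbers, whichever bead was used, were tested by a limma F test of the number beside the group. They passed an adjusted p of 0.05 in 2.0% of tested genes and in 0 of the 44 selected genes that were tested. At an unadjusted p below 0.05 there were 6 of the 44, against 11.6% of all tested genes. Without number 2, the calls over the whole table were 72 in place of 213, and 1 of the 44. ENSGALG00010028554 had the lowest p of the 44 (adjusted p = 0.0959 by limma), with PBS 2 and PBS 5 high, and ENSGALG00010013552 and ENSGALG00010020651 had adjusted p-values of 0.274 and 0.276 by limma. Selection for groups that do not overlap favours a small spread within groups, so these counts do not show that the selected genes vary less between numbers than other genes.

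The libraries numbered 6 were left out of the selection because their values lie with the opposite group. Their direction was thus known in part beforehand. They give the same measure with 1 library per label and hence no test. All 50 genes had the opposite direction there: the 30 genes were lower in the library labelled Noggin 6 than in the library labelled PBS 6, and the 20 genes were higher. Over all tested genes, 62.0% had a sign in number 6 opposite to that in numbers 1 to 5. A difference past 2 on the log2(CPM + 1) scale, in either direction, was found in number 6 for 28 of the 50 genes and for 0.798% of tested genes. The median difference in number 6 was -2.12 for the 30 genes (range -5.66 to -1.04) and 1.93 for the 20 genes (range 1.09 to 3.72). In numbers 1 to 5, where selection itself favours large values, the medians were 2.24 and -2.49.

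Gene by gene on the log2(CPM + 1) scale, the library labelled PBS 6 lay nearer to the Noggin mean of numbers 1 to 5 than to the PBS mean in 48 of the 50 genes, and the library labelled Noggin 6 nearer to the PBS mean in 50 of 50. Within the range of the 5 libraries of the opposite label, PBS 6 was found for 34 genes and Noggin 6 for 38. The exceptions on the first count were a gene of the 30 at 1.29 CPM in PBS 6 and a gene of the 20 at 6.47 CPM. None of these counts was made over all tested genes. Number 6 was set aside for lying with the opposite group, so nothing particular to the 50 genes is read from them. Whether the tissue responded in reverse or the labels were exchanged at some step was not tested.

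**Figure D5:**
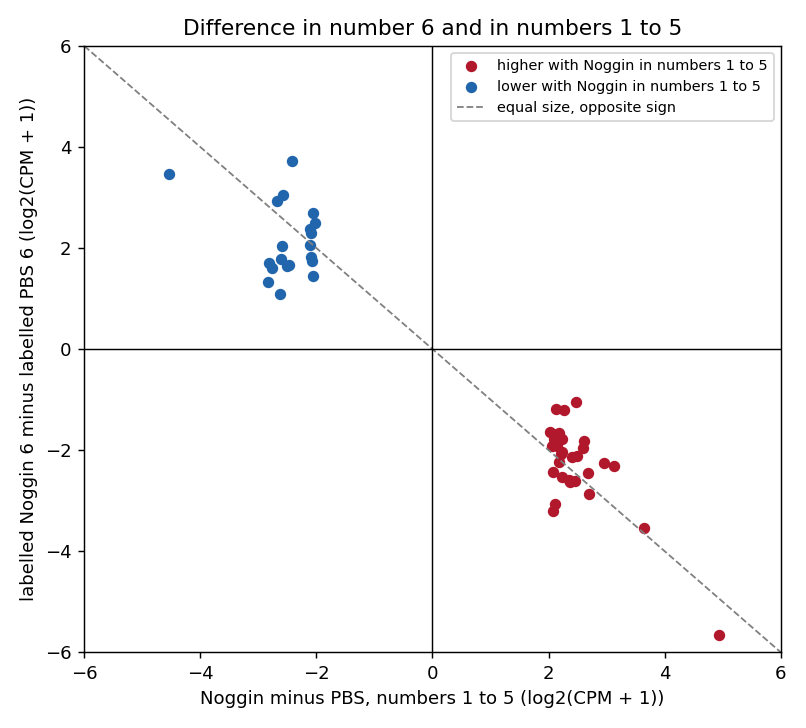
Difference labelled Noggin 6 minus labelled PBS 6 (vertical) against Noggin minus PBS in numbers 1 to 5 (horizontal), both on the log2(CPM + 1) scale, for 50 genes. All points lie in the upper left or lower right, around the dashed line of equal size and opposite sign.

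With all 12 libraries taken as labelled, no gene of the table met the terms of selection, because the groups of every one of the 50 overlapped. By limma, 0.122% of tested genes passed an adjusted p of 0.05 (13 genes, 6 higher and 7 lower with Noggin), and 0 of the 44 tested genes of the set were among them. Below an unadjusted p of 0.05 lay 40 of the 44, against 13.8% of all tested genes. Nothing is read from the 40 or from the directions as labelled, since 10 of these 12 libraries chose the genes. The log2 fold changes as labelled were 1.20 to 3.18 (median 1.53) for the genes higher with Noggin and -3.20 to -1.24 (median -1.73) for the genes lower. The description of the 50 genes in numbers 1 to 5 thus rests on leaving out the libraries numbered 6.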

How the data were processed

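One table of 30108 genes in 12 libraries was used. The deposited values are the natural log of (CPM + 1), although the table is named as counts: undone, every column sums to 1000000. Per the submitters' processing notes, fastp 0.21.0, BWA 0.7.17-r1188 and Salmon were used. The sources used here do not state the build, the annotation, the counting options or any use of molecular identifiers, so reads shared by near-identical genes could not be assessed. All values were whole multiples of 1 read within 0.001 read, which gave the reads. No libraries were duplicates (chi-square per degree of freedom at least 2.83 over 66 pairs).

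Libraries were grouped by title and matched by library code. The selected genes, gene lists and tests were chosen with earlier results of these data known; the lists could not be used without symbols. Named genes are, by rule, the 2 largest differences in each direction; other genes singled out were chosen after their values were seen. The rule used CPM without rescaling. The fit across genes (limma 3.58.1, R 4.3.3, trend and robust options) used log2(CPM + 1) with CPM rescaled by trimmed means of M-values, group alone as a term, and Benjamini-Hochberg adjustment; it was tested on simulated data. Equal replicate numbers were not treated as pairs. Exact binomial intervals and limits from 3 reads cover counting error only.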

Additional observations from a re-analysis of the deposited data

Results flagged for a closer look

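A library far from the rest was looked for in 24 groups of values, and 10 held one. The groups were the 4 named genes and the mean over each set, in groups of 5 and of 6. A chance rate of about 1 in 20 does not apply here. The genes were chosen for separated groups, number 6 was left out because it lies with the opposite group, and the groups share libraries. In 9 of the 10 it was a library numbered 6, as labelled, on the log2(CPM + 1) scale. For ENSGALG00010013552, Noggin 6 stood at 0 and PBS 6 at 5.66. For ENSGALG00010014238, Noggin 6 stood at 3.20. For ENSGALG00010028554, Noggin 6 stood at 5.75 and PBS 6 at 2.29. The mean over the 30 genes higher with Noggin was 1.84 in Noggin 6 and 4.12 in PBS 6, and the mean over the 20 genes lower with Noggin was 4.97 in Noggin 6 and 2.82 in PBS 6. The exception was Noggin 1 for ENSGALG00010020651, at 0.83 (2 reads) among the Noggin libraries 1 to 5.

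The median Noggin minus PBS difference in number 6 went against that of numbers 1 to 5, at -2.12 for the 30 genes and 1.93 for the 20 genes. With 1 pair of libraries this difference between numbers was not tested.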

How the results depend on the processing

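The set depended most on the pseudocount and on number 6. With a pseudocount of 4, which damps low levels by construction, 11 of the 50 genes met the terms (5 higher, 6 lower with Noggin), and with 0.5 there were 63, the 50 among them. At 10 CPM or more, 19 higher and 17 lower genes were left. With all 12 libraries as labelled, 0 genes met them (0 higher, 0 lower). TMM scaling kept the same 50, and leaving out 1 number gave 45 to 60 genes, 42 to 46 of them from the 50. That overlap is partly built in. Leaving out a number cannot undo the separation of the 50 genes, and the libraries that remain also chose them. Genes called by limma numbered 1135 in numbers 1 to 5 (713 higher, 422 lower) and 13 as labelled (6 higher, 7 lower). With the replicate block they numbered 1511 in numbers 1 to 5 and, as labelled, 0 by limma (0 higher, 0 lower, 1394 at an unadjusted p below 0.05). Other scalings, filters, pseudocounts, limma-voom and leaving out 1 library moved the counts by less than 1.5 times. Differences between replicate numbers were called in 72 to 223 genes of the table and in 0 to 1 of the 50 genes when 1 number was left out; the 72 and the 1 came without number 2. All 50 genes stayed opposite in number 6 under TMM scaling and pseudocounts of 0.5 and 4. These settings could hardly change that. A pseudocount cannot turn the sign of a difference between single libraries, and the TMM factors of Noggin 6 and PBS 6 were 0.982 and 0.983. None of the 4 named genes changed direction in 44 values, and 40 of these met the terms, all but those with 12 libraries. Little is read from this, since separated groups keep their direction under another pseudocount or without 1 number. The CPM limits do not enter the difference at all. In size, 7 of the 44 moved, all with a pseudocount of 4 or with 12 libraries. With a pseudocount of 4 the largest rise was 3.45 in place of 4.94, and the largest fall -3.45 in place of -4.55. At this depth, differences of a few reads were not resolved. The negative binomial test, which the design named for a table of raw counts, was not run; limma-voom was run on the recovered reads. Same-numbered deviations from the group means correlated at 0.0855 to 0.276. These correlations were above 0.1 in 4 of the 5 numbers. The main fit was planned with group alone, and the replicate block as an alternative, so the main fit did not pair replicate numbers. Each Noggin library still correlated best with the PBS library of its own number (highest value with another number 0.0156), a hint of pairing from the data and not from the design.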

Other observations

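Among the 20 genes lower with Noggin, PBS 2 and PBS 5 were together the 2 highest PBS libraries in 7 genes (35.0%), ENSGALG00010028554, ENSGALG00010020651 and the most abundant gene of the set among them. Over all tested genes the same pair was highest in 9.65%, and the other pairs of PBS libraries were highest in 0 to 3 of the 20 genes. This order was noticed in the values, and no test was made. PBS 2 and PBS 5 held 1793636 and 2430038 reads.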
